A study of Arabidopsis thaliana with 16 samples.

Results

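Transcript levels in root tips of the Arabidopsis thaliana mutant scm were compared with those of wild type over both media of the experiment, with the medium held as a factor. The comparison used all 4 arrays titled scm and all 4 arrays titled Col, 8 of the 16 Affymetrix ATH1 arrays of the series, and every probe set except the 64 controls. The scm plants carried the allele scm-2, the only scm allele in the series, and the wild type was Columbia, the ecotype that the labels also give for the mutant. Seedlings of both genotypes spent 1 hour, at an age of 5 days, on medium with 140 mM NaCl or on standard medium, and each group of genotype and medium had 2 biological replicates. Each replicate was a pool of about 30 roots cut about 5 mm above the tip, so the values average over all cell types of the tip, and fewer cells of a type cannot be told apart from less RNA per cell. The other arrays belonged to the double mutants wer-1 myb23-1 and cpc-1 try-82. They entered every main fit, in which all 16 arrays shared an estimate of the spread, and they also entered the pseudocount and the filter. Their own values are given only where scm was set beside them.

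The scm mutant is named for SCRAMBLED, which encodes a receptor-like kinase at the surface of epidermal cells. In the wild type root, epidermal cells over the cleft between underlying cortical cells become hair cells and those over a single cortical cell become non-hair cells. SCRAMBLED is needed to read that position, and in its absence hair and non-hair cells still form but in a disturbed pattern. The cues act on a network of MYB and bHLH transcription factors in which WEREWOLF and MYB23 promote the non-hair fate and CAPRICE and TRIPTYCHON move between cells to oppose it.

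Few transcripts passed the test between the genotypes. Of 17059 probe sets tested, 24 (0.141%) differed at a Benjamini-Hochberg adjusted p under 0.05 in limma, of which 11 (0.0645%) were higher and 13 (0.0762%) lower in scm. The platform annotation gives 1 gene for 11 of the 24. Of these, AT3G19430, the endoglucanase gene GH9C2 and the ribosomal protein gene AT4G39200 rose in scm, while the histone gene HTB2, the adjacent glycine-rich protein genes AT4G30450 and AT4G30460, AT5G35940, AT3G47800, AT4G39675, AT3G56360 and AT2G31090 fell. Of the other 13 probe sets, 12 had no gene listed (7 higher, 5 lower) and 1, higher in scm, had several. None of the 4 epidermal patterning genes and none of the 12 root hair genes that could be tested passed the threshold.

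The arrays of scm and wild type differed in ways that are not tied to single genes, and these values touch every result. All arrays had been scaled to the same trimmed mean signal, 250.03. The median signal was nevertheless 74.7 to 77.2 on the 4 scm arrays and 78.2 to 86.1 on the 4 wild type arrays, and the highest signal was 23767 to 25874 in scm and 30288 to 31473 in wild type. In neither measure did the genotypes overlap. The array carries 2 sets of GAPDH controls, whose ratio of 3′ to 5′ signal is a measure of how complete the labelled RNA is. On the log2 scale that ratio was 0.52 to 0.62 in scm and 1.01 to 1.27 in wild type for the r2 set, and 1.60 to 1.99 in scm and 2.17 to 2.43 in wild type for the other set. That of the r2 actin controls was 3.39 to 3.64 in scm and 4.15 to 4.62 in wild type, and none of these ratios overlapped. Under exact permutation of the genotypes within each medium all 3 differences had a two-sided p of 0.0556, the smallest that the 36 arrangements allow. In wer myb23 the r2 GAPDH and r2 actin ratios were 0.53 to 0.82 and 3.05 to 3.83, also below all wild type arrays. In cpc try they were 0.45 to 1.21 and 3.43 to 4.88, and only salt replicate 1 (1.21 and 4.88) was not below all wild type arrays. On the other cpc try arrays they were 0.45 to 0.63 and 3.43 to 3.54. Low ratios were thus not particular to scm. The highest signal was 25648 to 32343 in wer myb23 and 28241 to 33530 in cpc try. Of wer myb23 only salt replicate 1 was not below all wild type arrays, and of cpc try only the salt arrays. The median signal was 74.2 to 82.1 in wer myb23, overlapping wild type, and 72.6 to 76.7 in cpc try, below all wild type arrays. The part of the differences between scm and wild type arrays in the results was not tested. SCM itself was not analysed here, so the genotype was not checked on the mutated gene. Of the markers of the tissue, the root hair expansin EXPA7 was bright in both genotypes (722 to 1018 in scm, 794 to 1171 in wild type), and the markers of green tissue had no tested gene.

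**Figure D1:**
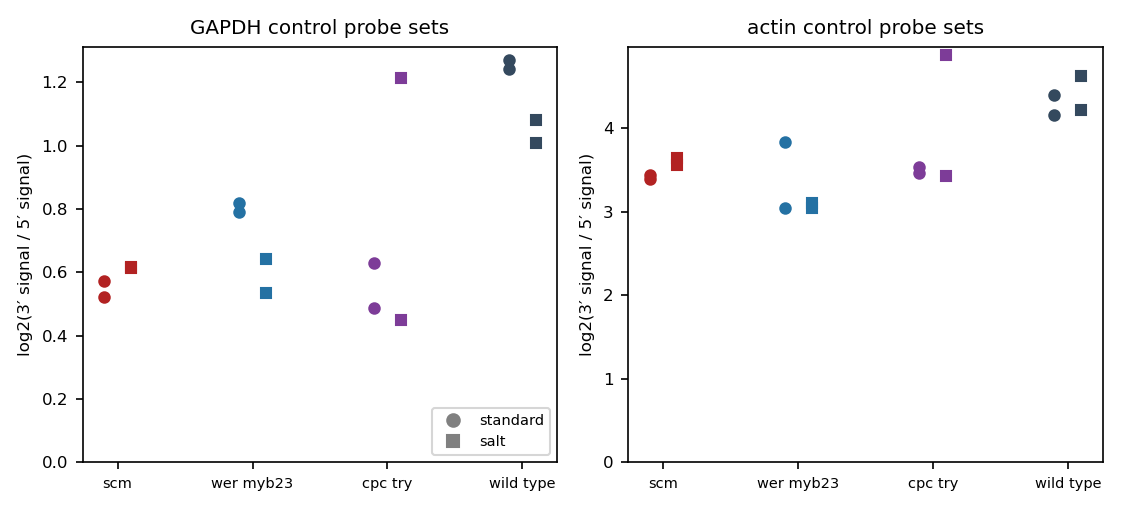
Ratio of 3′ to 5′ signal (log2) of the r2 GAPDH and r2 actin control probe sets on each of the 16 arrays, by genotype, with circles for standard medium and squares for salt. The 4 scm arrays lie between 0.52 and 0.62 for GAPDH and the 4 wild type arrays between 1.01 and 1.27.

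Over all 17059 probe sets the median log2 difference, scm minus wild type, was -0.01, and 1921 had an unadjusted p under 0.05, where 853 would pass by chance. The difference depended on the level. With the probe sets split into 5 groups of equal size by their mean level, the median was -0.16 in the dimmest group and -0.07, -0.01, 0.04 and 0.02 in the following ones, and the calls in these groups numbered 0, 4, 1, 5 and 14. All 24 called probe sets had the same sign of difference on both media. Calling on the mean over both media favours this, and also the separations that follow. In 21 of the 24 the scm and wild type arrays did not overlap within either medium, a pattern that 5.44% of all probe sets showed with scm higher and 6.01% with scm lower. In 17 of them all 4 arrays of one genotype lay above all 4 of the other, against 2.34% and 2.54% of all probe sets with scm higher and lower.

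**Figure D2:**
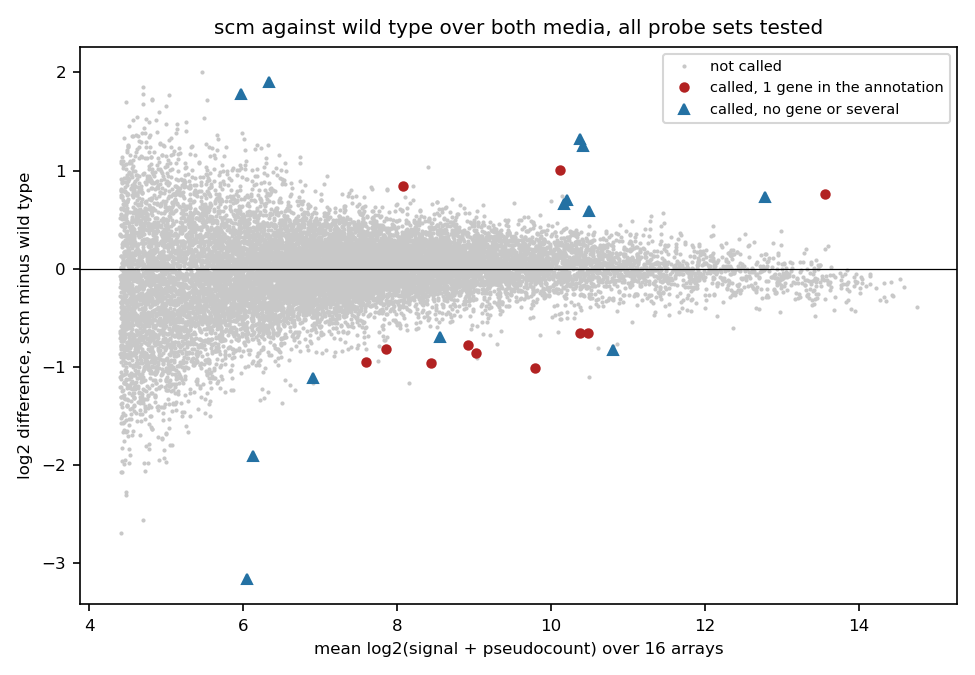
Log2 difference, scm minus wild type over both media (y axis), against the mean log2 of signal plus pseudocount over the 16 arrays (x axis) for the 17059 probe sets tested. The 24 called probe sets are coloured, with circles for the 11 that have 1 gene in the annotation and triangles for the 13 with none or several, and 14 of the 24 are in the brightest of 5 groups by level.

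AT3G19430 had the clearest rise among the genes that could be named. Its signal was 1792 and 1869 on standard medium and 1509.7 and 1788 on salt in scm, against 747 and 967 on standard medium and 824 and 929 on salt in wild type. Every scm array lay above every wild type array, and the level changed little with the medium in either genotype. The log2 difference was 1.00 ± 0.12 (SE, 2 arrays per group), a 2.01-fold rise with an adjusted p of 0.000174.

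GH9C2 encodes a glycosyl hydrolase of family 9, the family of plant endoglucanases that act on glucan chains of the cell wall. Its signal was 299 and 258 on standard medium and 335 and 432 on salt in scm, against 129 and 157 on standard medium and 190.4 and 272 on salt in wild type. The scm arrays were higher within each medium, although the brighter wild type salt array reached the range of scm on standard medium. The rise was 0.84 ± 0.17 on the log2 scale (adjusted p = 0.0427), and GH9C2 was the only one of 11 tested genes of its family to pass. Its relative GH9C1, known from root hairs, had a difference of 0.16 (adjusted p = 0.892), and the median over the family was 0.16, beside -0.02 over all 9495 named genes tested.

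AT4G39200 encodes a protein of the ribosomal small subunit, of the S25 family. It is one of the brightest transcripts on the array, with a signal of 19896 and 13229 on standard medium and 14725 and 18745 on salt in scm, against 10716 and 10649 on standard medium and 7777 and 10020.4 on salt in wild type. All 4 scm arrays were above all 4 wild type arrays, while the spread within scm was wide. The log2 difference was 0.76 ± 0.12 (adjusted p = 0.00912). The 3 other S25 genes, looked up after this value was seen, did not pass, with log2 differences of 0.25 for AT2G21580, -0.19 for AT4G34555 and -0.51 for AT2G16360.

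**Figure D3:**
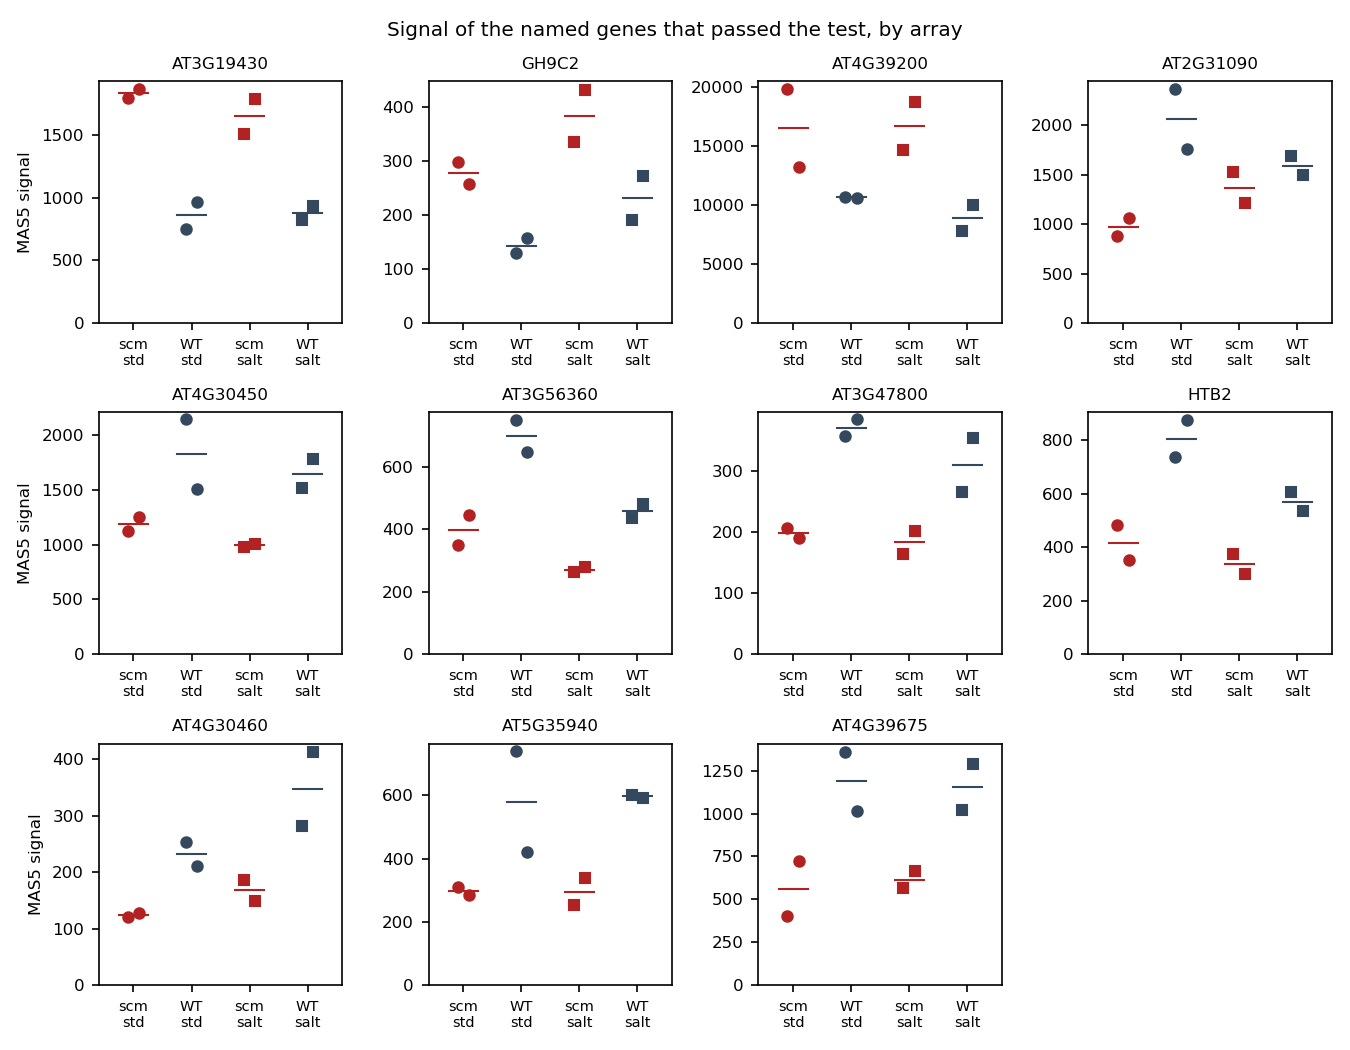
MAS5 signal on each array (y axis, linear, from 0) of the 11 named genes that passed the test, with scm in red left of wild type (WT) in dark blue on standard medium (std, circles) and on salt (squares), and a bar at each group mean. The top row starts with the 3 genes that rose, and the other 8 fell; only AT2G31090 has overlapping arrays within a medium, on salt.

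HTB2 encodes a histone H2B, one of the core histones around which DNA is wound, whose transcripts are made mostly while cells replicate their DNA. Its signal was 482 and 353 on standard medium and 375 and 299.6 on salt in scm, against 736 and 876 on standard medium and 607 and 534 on salt in wild type. No scm array reached the lowest wild type array. The fall was 0.86 ± 0.13 on the log2 scale (difference -0.86, adjusted p = 0.00689). Of 7 histone genes tested HTB2 alone passed, and the other H2B genes HTB1, HTB4 and HTB11 had differences of 0.06, -0.01 and 0.07. The median over the 7 was -0.05.

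AT4G30450 and AT4G30460 encode glycine-rich proteins, a class that includes structural proteins of the cell wall, and are neighbours in the TAIR10.1 annotation. AT4G30450 had a signal of 1129 and 1256 on standard medium and 983 and 1006 on salt in scm, against 2152 and 1514 on standard medium and 1515 and 1783 on salt in wild type. AT4G30460, a dimmer transcript, had 119.7 and 127 on standard medium and 186 and 149 on salt in scm, against 254 and 212 on standard medium and 282 and 413 on salt in wild type. For both genes every scm array lay below every wild type array. The log2 differences were -0.66 ± 0.12 for AT4G30450 (adjusted p = 0.025) and -0.95 ± 0.17 for AT4G30460 (adjusted p = 0.0205).

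AT5G35940 encodes a protein of the mannose-binding lectin family, and AT3G47800 one of the galactose mutarotase-like family, whose known members interconvert forms of sugars. AT5G35940 had a signal of 309.6 and 286 on standard medium and 252 and 338 on salt in scm, against 739.6 and 419 on standard medium and 600.1 and 593 on salt in wild type. AT3G47800 had 206 and 190.0 on standard medium and 164 and 202 on salt in scm, against 357 and 384 on standard medium and 266 and 354 on salt in wild type. The genotypes did not overlap for either gene, and the widest spread was between the 2 wild type standard arrays of AT5G35940. The log2 differences were -0.96 ± 0.17 (adjusted p = 0.0228) for AT5G35940 and -0.81 ± 0.16 (adjusted p = 0.0424) for AT3G47800.

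The last 3 genes that fell have no description in the tables used here. AT4G39675 had a signal of 401 and 721 on standard medium and 563 and 664 on salt in scm, against 1360.3 and 1017 on standard medium and 1018 and 1291 on salt in wild type, a log2 difference of -1.01 ± 0.17 (adjusted p = 0.011) and the largest fall among the named genes that passed. AT3G56360 had 350.0 and 447 on standard medium and 262 and 279 on salt in scm, against 750.3 and 648 on standard medium and 435 and 479.7 on salt in wild type, a difference of -0.78 ± 0.13 (adjusted p = 0.00936). All 4 scm arrays were below all 4 wild type arrays for AT4G39675, and within each medium for AT3G56360. AT2G31090 had 877 and 1065 on standard medium and 1523 and 1214 on salt in scm, against 2369.6 and 1765 on standard medium and 1693 and 1494 on salt in wild type, a difference of -0.65 ± 0.12 (adjusted p = 0.0312). Its arrays overlapped on salt.

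The number of calls rested on single arrays. With 1 of the 8 arrays left out it fell in some fits and rose in others, and no such fit kept every call. Each of these fits leaves a single array in 1 group. AT3G19430 passed with each of the 8 arrays left out (highest adjusted p 0.00408), and HTB2 in 7 of 8, missing at 0.0541 without scm salt replicate 2. The other 9 named calls each missed the threshold with between 3 and 7 of the arrays left out, and all 9 of them did so without scm standard replicate 1 (adjusted p 0.075 to 0.217) and without wild type standard replicate 1 (0.0505 to 0.138). Without scm salt replicates 1 and 2, 8 and 9 of the 11 missed (highest 0.205 and 0.237), and without wild type salt replicate 2, 6 did (highest 0.135). Without scm standard replicate 2, wild type salt replicate 1 and wild type standard replicate 2, 3, 2 and 1 of them missed (highest 0.093, 0.0885 and 0.0868). No named call changed its sign in these fits.

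Among the probe sets with no gene listed were those with the smallest adjusted p of the whole comparison. Probe set 261363_at had a signal of 2216 and 1841 on standard medium and 1468 and 1264 on salt in scm, against 627 and 834 on standard medium and 617 and 595 on salt in wild type, a log2 difference of 1.32 ± 0.11 (adjusted p = 2.03e-06). Probe set 251109_at had 2495 and 1509 on standard medium and 4106 and 3838 on salt in scm, against 628 and 760.2 on standard medium and 2031 and 1878 on salt in wild type, a difference of 1.25 ± 0.14 (adjusted p = 0.000153). The first was lower on salt in scm and the second higher on salt in both genotypes, and within each medium the scm arrays lay above the wild type arrays. The largest fall was that of 262451_at, for which the tables used here do not say whether it measures the mutated gene. It had 3.45 and 18.5 on standard medium and 19.9 and 7.99 on salt in scm, against 153 and 154 on standard medium and 141 and 83.4 on salt in wild type. The difference was -3.16 ± 0.34 on the log2 scale with the pseudocount, which understates changes of such low signals (adjusted p = 0.000103). All 3 passed with each of the 8 arrays left out.

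Since fewer than 8 named genes rose, those with the next smallest p among rises are given as values, and none of them passed here. The smallest p of these was that of AT2G02730, whose signals are given with the test on standard medium. Each passed after median-centring of the arrays (adjusted p 0.0313 for psaJ, 0.0346 for AT5G38790, 0.0218 for AT4G29520, 0.0296 for AT5G58920 and 0.0258 for AT2G02730). That step also raised the median difference over all probe sets, and most calls after it were higher in scm. AT5G38790 had a log2 difference of 2.00 (adjusted p = 0.0832), with signals of 123 and 125 on standard medium and 29.2 and 51.7 on salt in scm, against 90.6 and 14.9 on standard medium and 4.41 and 3.64 on salt in wild type. The plastid gene psaJ, which encodes a small subunit of photosystem I, had 618 and 439.5 on standard medium and 691 and 688 on salt in scm, against 313 and 253 on standard medium and 363 and 248 on salt in wild type (difference 1.03, adjusted p = 0.0748). AT4G29520 and AT5G58920 had differences of 0.56 and 0.65 (adjusted p = 0.0744 and 0.0818). For psaJ, AT4G29520 and AT5G58920 all scm arrays lay above all wild type arrays, whereas AT5G38790 overlapped across the media. Of the plastid-encoded genes 0 of 69 passed, and their median was 0.01, with 35 above and 34 below 0, beside 47.2% above 0 over all named genes.

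Of the 15 genes of the epidermal patterning list, 4 could be named and tested, and SCM, WER, MYB23 and CPC were not analysed here. JKD, a zinc finger protein of the ground tissue that acts upstream of SCRAMBLED in positioning hair cells, had a signal of 98.6 and 89.0 on standard medium and 73.1 and 78.0 on salt in scm, against 74.8 and 68.7 on standard medium and 34.0 and 15.9 on salt in wild type. The scm arrays lay above the wild type arrays within each medium, and the difference of 0.95 (95% interval 0.36 to 1.53) did not pass over all probe sets (adjusted p = 0.209). ATMYC1, a bHLH factor of the patterning network, had 165 and 235 on standard medium and 222 and 211 on salt in scm, against 299 and 272 on standard medium and 318 and 261 on salt in wild type. All its scm arrays were below all wild type arrays, with a difference of -0.47 (interval -0.92 to -0.02, adjusted p = 0.428).

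QKY encodes a membrane protein that acts with SCRAMBLED in the same signalling. Its signal was 187 and 156 on standard medium and 164 and 135 on salt in scm, against 126 and 151 on standard medium and 208 and 162 on salt in wild type. The genotypes overlapped and the difference was 0.00 (interval -0.36 to 0.36). TRY, the small MYB protein TRIPTYCHON, was dim, with 18.9 and 4.11 on standard medium and 45.3 and 27.3 on salt in scm, against 47.8 and 49.7 on standard medium and 15.6 and 9.98 on salt in wild type. It was lower in scm on standard medium (-1.94) and higher on salt (1.24), neither of which passed (adjusted p = 0.299 and 0.7), and the mean over both media was -0.35 (interval -1.19 to 0.49).

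Root hair genes encode expansins, extensins, peroxidases and other proteins of the growing hair wall. Of the 43 genes listed, 14 had a named probe set and 12 were tested, and none passed in either direction. Their median log2 difference was 0.11, with 7 above and 5 below 0, and the 95% interval lay within 1 log2 unit of 0 for 10 of the 12. Over all named genes 6466 of 9495 had an interval that narrow, and 47.2% of the differences were above 0. The values of the root hair genes ran from -0.35 for AT1G23720, an extensin-like gene (adjusted p = 0.405), to 0.69 for AT3G49960, a peroxidase gene (adjusted p = 0.623).

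EXPA7, an expansin that loosens the wall of growing hairs, had a signal of 953 and 722 on standard medium and 1018 and 876 on salt in scm, against 874 and 1010.5 on standard medium and 1171 and 794 on salt in wild type. The arrays of both genotypes were interleaved, and the difference was -0.10 (interval -0.51 to 0.30). For EXPA18 and GH9C1 it was 0.15 (interval -0.46 to 0.76) and 0.16 (interval -0.50 to 0.82), so that a change of 2-fold in either direction lies outside the intervals of all 3 genes. Median-centring of the arrays turned the sign of EXPA7, to 0.0084.

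**Figure D4:**
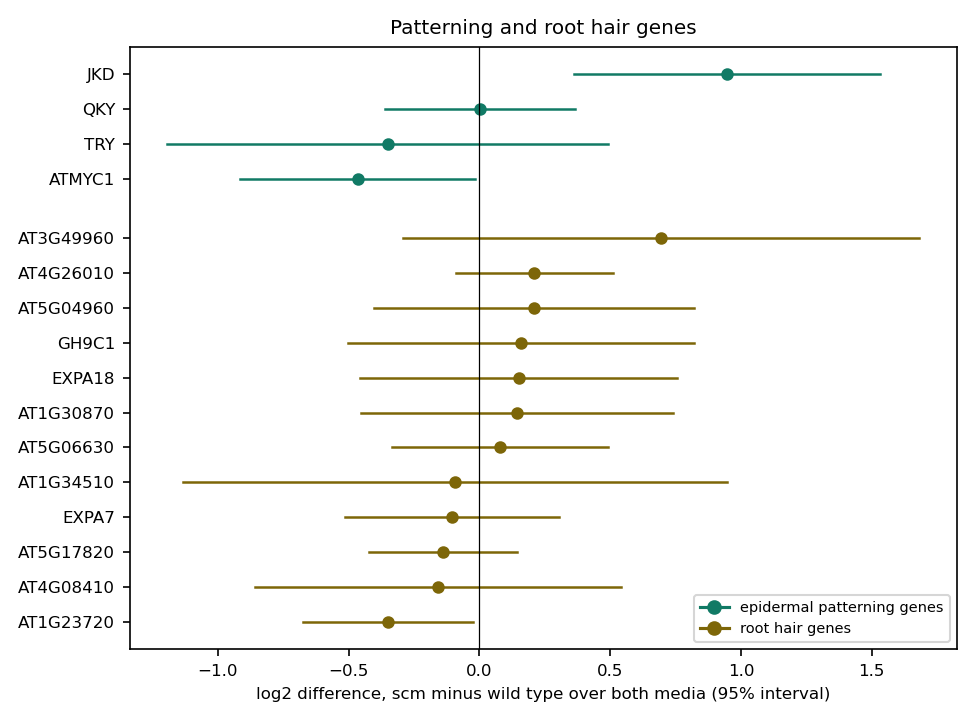
Log2 difference, scm minus wild type over both media, with its 95% interval, for the 4 epidermal patterning genes and the 12 root hair genes tested. The interval of JKD runs from 0.36 to 1.53, and those of most root hair genes include 0, with a median difference of 0.11.

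The cell cycle list had 2 tested genes, HTB2, which fell, and HTB1, which did not pass, and no gene passed in the other lists. The 9 tested genes of the abscisic acid and dehydration response, among them the cold and dehydration genes COR47 and LTI30, had a median of -0.21, with 1 above and 8 below 0, and none passed. Over all named genes the median was -0.02, and 47.2% were above 0. COR47 had -0.15 (adjusted p = 0.583) and LTI30 -0.12 (0.775), and both were just above 0 after quantile normalization (0.0123 and 0.0011). None passed among 3 touch and calcium genes (median 0.11), 3 ethylene, jasmonate and defence genes (-0.20), 2 auxin genes (0.17) and 2 circadian genes (-0.28). The single tested genes of flavonoid synthesis (DFR, -0.80, adjusted p = 0.582), heat shock (AT1G53540, -0.86, 0.554) and reference metabolism (GAPC2, 0.27, 0.294) did not pass either. Of the cell type markers, 2 of cortex were tested and did not pass (AT1G62500, -0.65, adjusted p = 0.412; AT1G09750, -0.06, 0.939), and the marker lists of stele, endodermis, root cap, meristem and green tissue had no tested gene.

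Beside the endoglucanases, of which GH9C2 rose, further families of wall and secondary metabolism genes were counted. Of the class III peroxidases 0 of 43 passed (median -0.02), of the UDP-glycosyltransferases 0 of 36 (median 0.08), of the expansins 0 of 16 (median -0.08), of the glutathione S-transferases 0 of 13 (median 0.02), of the cytochromes P450 0 of 11 (median -0.28) and of the xyloglucan endotransglucosylases/hydrolases 0 of 8 (median 0.04). Their values spread widely where signals were low: EXPA16 had -1.64 (adjusted p = 0.327) and the peroxidase gene AT4G08780 1.52 (adjusted p = 0.302).

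On the 2 media taken apart, 9 probe sets (0.0528%) passed on standard medium, 6 (0.0352%) higher and 3 (0.0176%) lower in scm, and 1 (0.00586%), higher in scm, passed on salt. Of the 9, 8 were also called over both media. On standard medium 3 named genes passed: AT3G19430 (1.1, adjusted p = 0.00518), AT2G31090 (-1.08, adjusted p = 0.0107) and AT2G02730 (3.43, adjusted p = 0.00402). AT2G02730 had a signal of 63.1 and 75.6 on standard medium and 71.4 and 71.4 on salt in scm, against 2.3 and 3.08 on standard medium and 49.8 and 101 on salt in wild type. Since the wild type standard signals lay below the pseudocount of 4.1, the size of its difference is set by the pseudocount, and it was 4.25 and 2.19 at pseudocounts of 1 and 16. The wild type standard arrays stood apart from all others, since the wer myb23 and cpc try arrays had 27.1 to 69.2. The 1 probe set on salt was 261363_at. The count on standard medium was 3 without scm standard replicate 1, and 24 and 39 without wild type standard replicates 1 and 2. AT3G19430 missed the threshold on standard medium without scm standard replicates 1 and 2 (adjusted p = 0.0593 and 0.0708) and without wild type standard replicate 1 (0.0821), AT2G31090 without scm standard replicate 1 (0.227) and wild type standard replicate 1 (0.127), and AT2G02730 without scm standard replicates 1 and 2 (0.056 and 0.0654). On salt the count was 3 and 4 without scm standard replicates 1 and 2, 0 without scm salt replicate 1, and 41 and 8 without wild type salt replicates 1 and 2.

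Whether the response to salt differed between scm and wild type was tested as the interaction of genotype and medium. No probe set passed in limma (0%), 764 had an unadjusted p under 0.05, fewer than the 853 that chance gives, and the smallest adjusted p was 0.449. The named genes with the smallest p were AT2G02730, AT2G19385 and AT2G15830, each at an adjusted p of 0.536. AT2G19385 had 415 and 477 on standard medium and 387 and 299 on salt in scm, against 392 and 375 on standard medium and 646 and 669.9 on salt in wild type. AT2G15830 had 247 and 246 on standard medium and 448 and 414 on salt in scm, against 473 and 368 on standard medium and 306 and 222 on salt in wild type. With 1 array left out the count was 0 without each scm array, 1 and 4 without wild type standard replicates 1 and 2, and 6 and 1 without wild type salt replicates 1 and 2.

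The named calls were set beside the same genes in the other patterning mutants. All 3 mutants were compared with the same 4 wild type arrays, so these values are not independent of each other, and only the tests of scm directly against another mutant, which leave the wild type out, bear on a difference. These direct tests reuse the scm arrays by which the genes were called, which favours differences in the direction of the call. Over all probe sets 125 (0.733%) differed between scm and wer myb23 and 1476 (8.65%) between scm and cpc try. The count of 125 was 46, 52 and 66 without scm standard replicate 1 and scm salt replicates 1 and 2, and 67, 55 and 61 without wer myb23 standard replicates 1 and 2 and salt replicate 1.

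AT3G19430 differed from wild type by 1.00 in scm, -0.63 in wer myb23 and 1.05 in cpc try. Its signal was 459 to 614 in wer myb23 and 1614 to 2082 in cpc try, so that scm lay far above wer myb23 (difference 1.63 ± 0.12, adjusted p = 1.64e-07) and was not distinguishable from cpc try (-0.04 ± 0.12, adjusted p = 0.904). GH9C2 differed from wild type by 0.84 in scm, 0.24 in wer myb23 and 1.14 in cpc try, and neither direct test passed (0.59 ± 0.17 against wer myb23, adjusted p = 0.125; -0.31 ± 0.17 against cpc try, adjusted p = 0.322). AT4G39200 differed from wild type by 0.76 in scm, 0.50 in wer myb23 and -0.01 in cpc try, and scm was above cpc try (0.76 ± 0.12, adjusted p = 0.000161) but not distinguishable from wer myb23 (0.26 ± 0.12, adjusted p = 0.547).

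AT4G39675 and AT3G56360 were lower in scm than in both other mutants. For AT4G39675 scm differed by -0.89 ± 0.17 from wer myb23 (adjusted p = 0.00995) and by -0.57 ± 0.17 from cpc try (adjusted p = 0.0328). For AT3G56360 these differences were -0.60 ± 0.13 (adjusted p = 0.0231) and -0.79 ± 0.13 (adjusted p = 0.000185). HTB2 was lower in scm than in cpc try (-0.57 ± 0.13, adjusted p = 0.00656), and its difference from wer myb23 did not pass (-0.47 ± 0.13, adjusted p = 0.117). AT5G35940 was lowest in wer myb23, at -1.61 against wild type, beside -0.96 in scm and -0.38 in cpc try, and it passed against cpc try (-0.58 ± 0.17, adjusted p = 0.0419) but not against wer myb23 (0.65 ± 0.17, adjusted p = 0.102). For AT2G31090, AT3G47800, AT4G30450 and AT4G30460 neither direct test passed, and each was below wild type in both other mutants as well. Their differences from wild type, in that order, were -0.42, -0.38, -0.54 and -0.55 in wer myb23. In cpc try they were -0.26, -1.06, -0.30 and -0.73. With 1 array left out at a time, AT3G19430 against wer myb23 and AT4G39200 and AT3G56360 against cpc try passed in all 8 fits, and HTB2 against cpc try in 6, missing without scm standard replicate 2 (0.0571) and scm salt replicate 2 (0.0532). The differences of AT4G39675 from wer myb23 and cpc try missed in 4 and 7 of 8 fits (highest adjusted p 0.0926 and 0.222), that of AT3G56360 from wer myb23 in 6 (0.187) and that of AT5G35940 from cpc try in 5 (0.195), each of them among others without scm standard replicate 1 and without scm salt replicate 1.

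The unnamed probe set 262451_at was lower in scm than in each of the other genotypes. Its signal of 3.45 to 19.9 in scm stood against 68.1 to 100.3 in wer myb23 and 92.1 to 113 in cpc try, with differences of -2.55 (adjusted p = 0.000457) and -2.88 (adjusted p = 5.12e-06). Probe set 251109_at was higher in scm than in either, by 1.29 (adjusted p = 5.04e-05) and 1.59 (adjusted p = 8.75e-08). The rise of 261363_at was not particular to scm: it differed from wild type by 1.32 in scm, 0.87 in wer myb23 and 1.82 in cpc try. Directly compared, scm was below cpc try (-0.50 ± 0.11, adjusted p = 0.00444), and its difference from wer myb23 did not pass (0.45 ± 0.11, adjusted p = 0.0627).

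**Figure D5:**
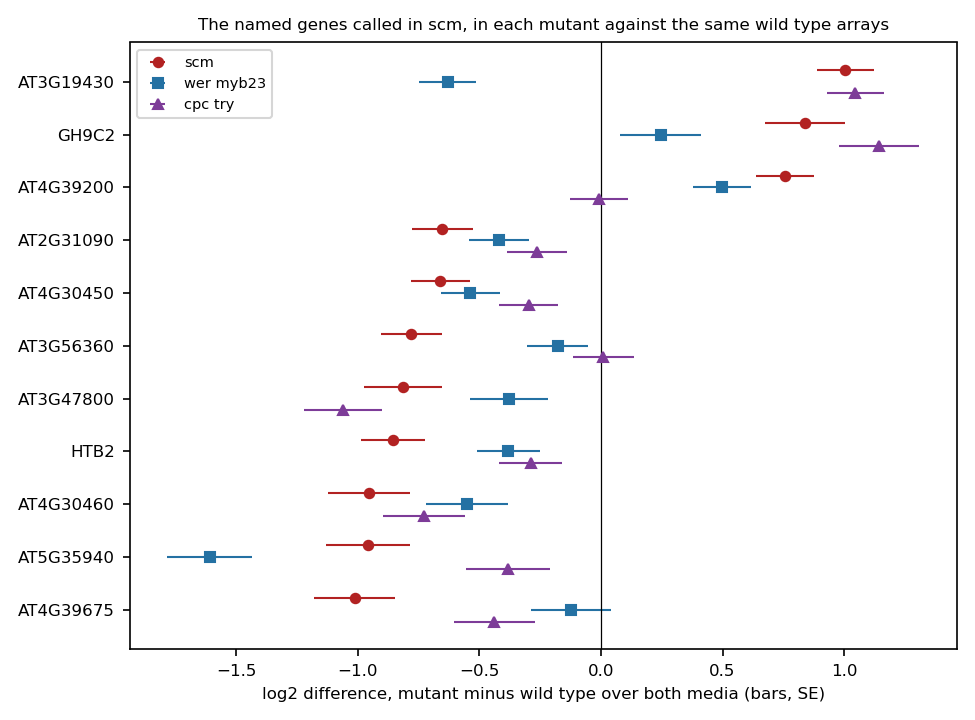
Log2 difference from wild type over both media (x axis, bars are SE) of the 11 named genes called in scm, for scm, wer myb23 and cpc try, all against the same 4 wild type arrays. AT3G19430 is at 1.00 in scm, -0.63 in wer myb23 and 1.05 in cpc try, and AT3G56360 is at -0.78 in scm and near 0 in cpc try.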

How the data were processed

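The authors deposited a linear MAS5 intensity for each of 22810 probe sets per ATH1 array; the tool is named in the submitters' processing notes, and the sources used here do not give its version or settings. No detection calls were used. The labels name the replicates biological. Arrays were grouped by title; the growth medium entry of the scm standard arrays names NaCl and 4 days instead, and on the leading principal component these arrays lay at -44.5 and -40.1, the wild type standard arrays at -37.0 and -44.5, the scm salt arrays at 30.2 and 34.9 and the wild type salt arrays at 34.6 and 46.4. Genes came from the platform annotation (13513 probe sets with 1 gene, 503 with several, 8730 with none); 13436 matched RefSeq TAIR10.1 by Entrez ID.

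Values were transformed as log2(signal + 4.1), 4.1 being the 10th percentile of the table. Control probe sets and those with a mean under the 25th percentile were removed, which left 17059, of which 9577 have 1 gene (9495 genes, the brightest probe set each). With limma 3.58.1 (R 4.3.3), 8 group means were estimated from the 16 arrays, with a trend in the spread (8 residual and 12.0 prior degrees of freedom), and p-values were adjusted by Benjamini-Hochberg over all probe sets, two-sided. The scripts were tested on simulated data. The number of arrays limits the precision.

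The members, the 18 gene lists, the 11 families and the rule for named genes were chosen with earlier results of these data known. The rule named all measured patterning genes, the 12 largest rises and falls that passed without overlap within a medium (AT2G31090, which overlapped on salt, was named by the standard medium test), rises up to 8 by p, the brightest 2 or up to 3 called members of each list, and 3 to 6 genes per further test. Replicate numbers were not treated as pairs: replicate differences correlated with r from 0.016 to 0.045 over the 6 pairs of scm and wild type groups. Alternatives were the pseudocount, the filter, centring, quantile normalization, the trend, the arrays fitted, a replicate block and each array left out. With only the genotypes compared fitted, comparisons over both media had terms for genotype and medium in place of group means. No sequence was available for printing.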

Additional observations from a re-analysis of the deposited data

Results flagged for a closer look

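Control probe sets, which took no part in the tests, differed between the genotypes. Of 36 control probe sets with a bright signal, 5 were higher on all 4 scm arrays than on all 4 wild type arrays and 6 were lower. Among all probe sets tested, 2.34% were higher and 2.54% lower in this way. The 5 higher ones were internal controls for actin and GAPDH, the transcripts whose 3′ to 5′ ratios are given above, and are not independent of those ratios. Their mean signal in scm was 1.24 and 1.37 times that in wild type for the middle parts of actin (the Athal and the r2 set), 1.72 times for the 5′ part of actin (r2), and 1.36 and 1.45 times for the 5′ part of GAPDH (Athal and r2). The 6 lower ones were spike controls added to the samples, and their mean signal in scm was between 0.769 times (bioC 3′, r2) and 0.862 times (cre 5′, r2) that in wild type, with 0.796 for the other bioC 3′ set, 0.815 for bioC 5′, 0.849 for bioB 5′ and 0.856 for bioD 5′ (r2). Their part in the results was not tested.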

How the results depend on the processing

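The count over both media was 24 and 30 at pseudocounts of 1 and 16, 26 and 24 without a filter and with a filter at the 50th percentile, 29 after quantile normalization and 31 with only these genotypes fitted. It was 67 after centring arrays on their medians, which moved the median difference to 0.103 and made 85.1% of the calls higher in scm, against 45.8% before, and 3 without the trend in the spread, of which 2 were among the 24; the cause was not tested. Without the trend every named call was lost (adjusted p 0.0658 for AT3G19430 to 0.27 for AT2G31090). The calls of AT3G47800 and AT2G31090 were also lost on median-centring (0.0623 and 0.0584), those of GH9C2 and AT2G31090 with only these genotypes fitted (0.0513 and 0.116). For comparisons over both media, that last fit also had terms for genotype and medium in place of group means. It kept 18 of the 24 calls, and 244915_s_at, 250970_at, 263046_at and 267557_at were lost in it too. With the replicate block 30 passed, including all 24, and no call was lost.

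On standard medium 3 passed without the trend and 3 with only these genotypes fitted. There AT3G19430 was lost without the trend (0.143), AT2G31090 without the trend (0.234) and with only these genotypes fitted (0.0707), and AT2G02730 with only these genotypes fitted (0.0835). On salt 2 passed at a pseudocount of 16, 3 after median-centring, 2 after quantile normalization, 2 without the trend and 0 with only these genotypes fitted. For the difference in salt response 2 passed without the trend. Between scm and wer myb23 11 passed without the trend and 211 with only these genotypes fitted. Without the trend the direct differences of AT4G39675 from wer myb23 and cpc try (0.258 and 0.166), of AT3G56360 from wer myb23 (0.19) and of AT5G35940 from cpc try (0.14) were lost, while AT5G35940 passed against wer myb23 with only these genotypes fitted (0.0375). Over both media psaJ also passed at a pseudocount of 16 (0.0466) and with only these genotypes fitted (0.00886), AT5G38790 after quantile normalization (0.0494), and AT2G02730, at 0.0571 otherwise, at a pseudocount of 1, after median-centring and after quantile normalization (0.031, 0.0258 and 0.0322). Leaving out 1 array gave 6 to 66 over both media, 3 to 39 on standard medium, 0 to 41 on salt, 0 to 6 for the difference in salt response and 46 to 111 between scm and wer myb23.

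Signs turned only for differences that had not passed. On median-centring AT1G09750 was at 0.0563, EXPA7 at 0.0084 and HTB4 at 0.0989; after quantile normalization COR47 was at 0.0123, HTB4 at 0.0031 and LTI30 at 0.0011. With 1 array left out AT1G09750 ran over -0.24 to 0.12, EXPA18 -0.11 to 0.41, EXPA7 -0.24 to 0.035, HTB1 -0.042 to 0.16, HTB11 -0.0067 to 0.14, HTB4 -0.13 to 0.11, QKY -0.087 to 0.089, TRY -0.72 to 0.022, and AT3G19430 between scm and cpc try -0.10 to 0.019. With 2 arrays per group, signals near the background and changes well under 2-fold are poorly resolved.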
